A study of Mus musculus with 4 samples.

Results

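The genes described here build and brace the cornified envelope, the protein shell that replaces the plasma membrane of a dying keratinocyte at the skin surface. The set holds 10 genes: the transglutaminases Tgm1, Tgm3 and Tgm5, and the envelope or adhesion proteins Ivl, Cdsn, Ppl, Evpl, Scel, Cnfn and Sbsn. They were found by their symbol in the annotation of the array's probe sets, and 7 of them had a probe set, out of 12393 genes with a probe set naming them alone. Each of the 7 was read by 1 probe set. Tgm5, Cnfn and Sbsn had no listed probe set and were not analysed here. A gene is called measured when its highest array value was at or above the median of all table entries, 20.04 intensity units, which held for 6 of the 7 and for 7461 genes in all. The exception was Ivl.

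The cells were primary keratinocytes from tail skin of C57BL/6 mice with a floxed Prdm1 gene, which encodes the transcriptional repressor Blimp-1. Control cells had the floxed gene without CreER, and CKO cells had it with CreER, a Cre recombinase that is active once 4-hydroxytamoxifen (4OHT) binds it. From day 1 to day 3 each genotype was kept with 4OHT or with ethanol (EtOH), the solvent, in serum-free medium on collagen-coated plates and was collected on day 5. The floxed gene and the medium were thus common to all 4 groups, which are named CKO EtOH, CKO 4OHT, control EtOH and control 4OHT. Mice with and without CreER were different animals, so a genotype difference is also one between animals. For the promoter of CreER, the age of the mice and how many were pooled, the sources used here give nothing. Each group had 1 array of the Affymetrix 430A type, so no difference has an error or a test, and its precision cannot be estimated.

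A level is given as the RMA intensity, which is linear, and a difference is given in log2, where 1 is 2-fold. Prdm1 had an intensity of 20.7 with EtOH and 52.4 with 4OHT in control cells, and 17.0 and 6.43 in CKO cells, so it was lowest on the array labelled as deleted and highest in drug-treated control cells. The sources used here do not say which part was floxed, and a probe set elsewhere in the gene would not read its loss. Of 10 keratinocyte markers, 9 had a probe set and all 9 were measured, with summed intensities between 14250 and 15197. Among markers of other cells, 1 of 7 fibroblast genes (Dcn), 1 of 7 immune genes (Cd3e) and 0 of 5 endothelial genes were measured, and none of them was above 28.9 intensity units. The melanocyte list, with 4 of its 6 read genes measured and none above 40.3, summed to between 119 and 146, highest in CKO 4OHT. The sebocyte and hair follicle list summed to 3797 in CKO 4OHT against at most 4496 elsewhere. In CKO 4OHT against CKO EtOH, 2 of its 4 measured genes passed 2-fold, Mgst1 (-1.56) and Krt75 (1.05). The keratinocyte marker Krt1 did so as well (-3.23, from 205 to 21.8 intensity units). The part of these markers in the results was not tested. In such bulk cultures, fewer cells of a type and less RNA per cell cannot be told apart.

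Transglutaminases join glutamine and lysine side chains of neighbouring proteins by bonds that proteases do not cut. TGM1 sits at the inner face of the membrane of upper keratinocytes, TGM3 and TGM5 are further epidermal isoforms, and loss of TGM1 causes a congenital ichthyosis in humans. Envoplakin and periplakin (Evpl, Ppl) are plakins that pair with each other near desmosomes. With involucrin (Ivl) they are among the first proteins to be crosslinked, and this scaffold then receives loricrin, the small proline-rich proteins and the late cornified envelope proteins. Sciellin (Scel) and cornifelin (Cnfn) are further envelope components. Corneodesmosin (Cdsn) is an adhesion protein of the corneodesmosomes that hold cornified cells together, and suprabasin (Sbsn) is a secreted suprabasal product.

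The promoter sequences of the genes were searched for short motifs of transcription factors. RefSeq windows from 250 bases before to 50 bases after the transcription start (build GRCm38.p6) were at hand for 8 of the 10 genes, in 10 windows. Ppl and Evpl were not among them. The motifs were TGANTCA, the core of AP-1 sites, which reads the same on both strands, and GAAAGT, a core of sites bound by Blimp-1 in other cells, sought on both strands (ACTTTC on the other). No match of one motif overlapped a match of the other. TGANTCA was in windows of 3 of the 8 genes, Ivl, Scel and Sbsn, beside 8.97% of all 27025 genes with a window (7.81% of windows). GAAAGT was in windows of 3 of the 8 genes, Tgm1, Tgm3 and Tgm5, beside 16.1% of all genes (14.3% of windows). A match describes letters only and is not a bound site. The 250 bases before the start are shown for the genes with both a probe set and a match, since Tgm1 and Tgm3 share a motif and differed most from each other in the array values. Capitals mark the motifs. The stretches lie at chr14:55713493-55713742 on the minus strand for Tgm1 (its second window, without a motif, is not shown), chr2:130012090-130012339 on the plus strand for Tgm3, chr14:103513091-103513340 on the plus strand for Scel and chr3:92573736-92573985 on the minus strand for Ivl.
Tgm1: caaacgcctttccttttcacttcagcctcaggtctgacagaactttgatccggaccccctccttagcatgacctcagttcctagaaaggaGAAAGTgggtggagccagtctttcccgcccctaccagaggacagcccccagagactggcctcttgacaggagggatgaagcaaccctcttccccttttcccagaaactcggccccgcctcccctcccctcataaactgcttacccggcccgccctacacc
Tgm3: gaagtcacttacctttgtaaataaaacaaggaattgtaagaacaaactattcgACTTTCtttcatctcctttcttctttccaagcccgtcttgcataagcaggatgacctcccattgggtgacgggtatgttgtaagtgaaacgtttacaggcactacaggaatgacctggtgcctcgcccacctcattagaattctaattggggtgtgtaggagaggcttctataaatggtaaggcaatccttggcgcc
Scel: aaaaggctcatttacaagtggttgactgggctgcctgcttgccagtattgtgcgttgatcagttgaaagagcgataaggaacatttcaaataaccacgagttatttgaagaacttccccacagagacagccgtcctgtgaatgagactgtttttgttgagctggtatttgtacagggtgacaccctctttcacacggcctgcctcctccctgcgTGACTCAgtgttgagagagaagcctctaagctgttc
Ivl: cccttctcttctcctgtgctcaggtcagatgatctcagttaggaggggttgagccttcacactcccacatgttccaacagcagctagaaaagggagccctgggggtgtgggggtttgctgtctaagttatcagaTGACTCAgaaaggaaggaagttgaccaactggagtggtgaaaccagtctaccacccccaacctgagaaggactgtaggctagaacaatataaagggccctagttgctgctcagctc
The first motif base lay 160 bases before the start in Tgm1, 197 in Tgm3 (on the other strand), 36 in Scel and 116 in Ivl. The windows of Cdsn and Cnfn held neither motif.

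Tgm1, the main crosslinking enzyme of the envelope, had the largest drug difference of the 6 measured genes in both genotypes. Its intensity (probe set 1451416_a_at) was 63.3 with EtOH and 179.9 with 4OHT in control cells, and 67.2 and 198 in CKO cells. Both 4OHT arrays were high and both EtOH arrays low. The 4OHT array was 1.51 higher in control cells (2.84-fold) and 1.56 higher in CKO cells (2.95-fold). The CKO 4OHT array stood 0.14 above control 4OHT, and the solvent arrays of both genotypes differed by 0.09. Of the 7461 measured genes, 99.7% had a smaller drug difference than Tgm1 in control cells and 99.4% in CKO cells.

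Tgm3, which acts in the later crosslinking of the epidermis and in the hair follicle, was the only measured member of the set with opposite drug differences in the genotypes. Its intensity (1421355_at) was 24.3 with EtOH and 39.4 with 4OHT in control cells, and 29.8 and 19.5 in CKO cells. Control 4OHT was thus the highest array and CKO 4OHT the lowest, the latter under the level at which a gene counts as measured. The drug difference was 0.70 in control cells and -0.61 in CKO cells. Against control 4OHT, CKO 4OHT was lower by 2.02-fold (-1.01), just past the 2-fold mark. That value was -0.64 with a pseudocount of 16 and -0.99 with array medians subtracted, both within 2-fold. Between the enzymes, the drug difference of Tgm1 was 0.81 larger than that of Tgm3 in control cells and 2.17 larger in CKO cells. Tgm1 and Tgm3 were also the pair of measured members whose patterns lay furthest from each other, at a distance of 1.70 (Euclidean, log2 values centred on each gene's mean over 4 arrays).

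Transglutaminases and associated genes listed outside the set gave no measured value to place beside these. Of 7 such genes, 4 had a probe set and none was measured. Tgm2, the widely expressed tissue transglutaminase, was at 16.1 to 18.0 on the 4 arrays. F13a1 and F13b, the subunits of coagulation factor XIII, and Epb42, an inactive relative in red cells, were at 7.79 intensity units or less.

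The paired plakins had drug differences of the same sign and different size. Evpl (1419133_at) had an intensity of 83.4 with EtOH and 130.0 with 4OHT in control cells, and 87.0 and 140.0 in CKO cells. As for Tgm1, both 4OHT arrays were above both EtOH arrays, by 0.64 in control cells and 0.69 in CKO cells. Ppl (1460732_a_at) had an intensity of 139 with EtOH and 281 with 4OHT in control cells, and 169 and 219 in CKO cells. Its 4OHT arrays were also the higher ones, but the drug difference was 1.01 in control cells and 0.37 in CKO cells, 36.7% of the control value on the log2 scale. CKO 4OHT stood 0.36 below control 4OHT for Ppl (-0.36) and 0.11 above it for Evpl.

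Scel and Cdsn had the pattern of Ppl with larger drug differences. Scel (1422837_at) had an intensity of 142 with EtOH and 356 with 4OHT in control cells, and 182 and 292 in CKO cells. Its drug difference was 1.32 in control cells and 0.68 in CKO cells, and its solvent arrays differed by 0.36, the widest of the 6 measured genes. Cdsn (1435191_at) had an intensity of 201 with EtOH and 559 with 4OHT in control cells, and 213 and 383 in CKO cells. For Cdsn the drug difference was 1.47 in control cells and 0.84 in CKO cells, or 57.3% of the control value. For Scel and Cdsn alike, control 4OHT was the highest array, CKO 4OHT the second and control EtOH the lowest. Ppl had that order as well, which 4.57% of measured genes had. The order of Tgm1 and Evpl, with CKO 4OHT highest, then control 4OHT, CKO EtOH and control EtOH, was that of 5.62% of measured genes. The Cdsn and Scel patterns were the closest of all pairs of measured members (distance 0.31), followed by Ppl with Scel (0.32).

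Ivl could not be read at a usable level. Its probe set (1422222_at) was at 6.33 with EtOH and 7.96 with 4OHT in control cells, and 7.13 and 10.1 in CKO cells, under the table's median on every array. The 4OHT arrays were higher by 0.33 and 0.51, within dim signal whose distance from background the table does not give.

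**Figure D1:**
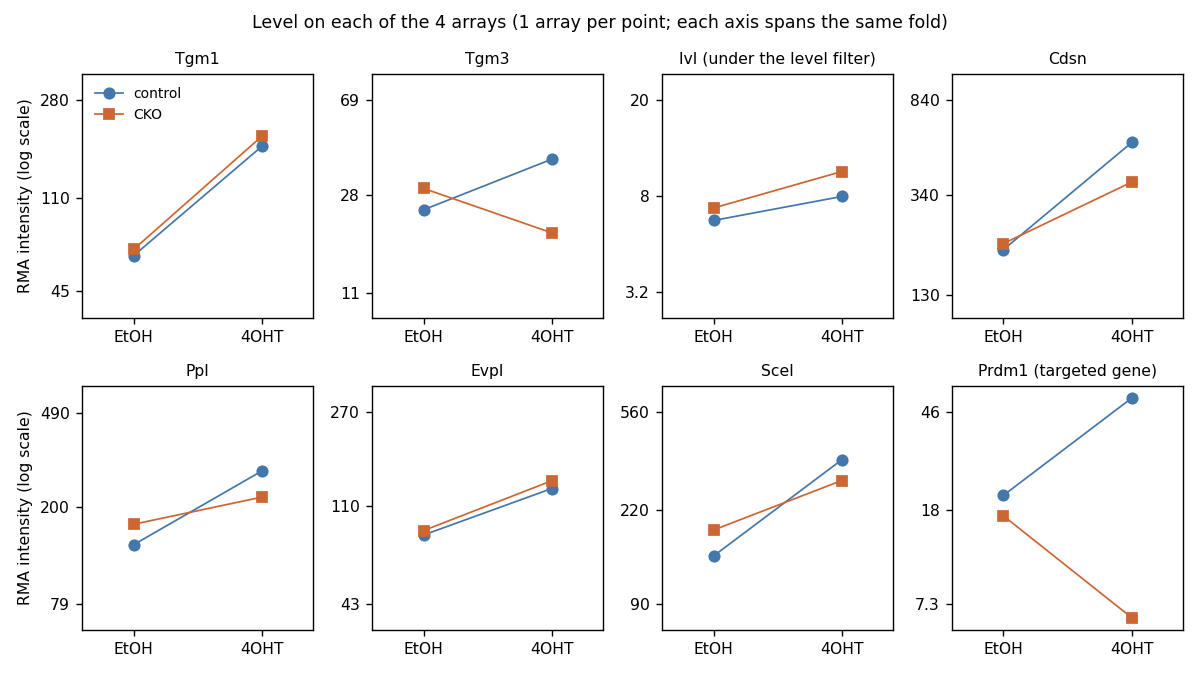
RMA intensity (log scale) of the 7 genes with a probe set and of the targeted gene Prdm1 with EtOH and with 4OHT; each point is 1 array, blue circles are control cells, orange squares are CKO cells, and every axis spans the same fold. Tgm1 and Evpl run together in both genotypes, Cdsn, Ppl and Scel end lower in CKO 4OHT (383, 219 and 292) than in control 4OHT (559, 281 and 356), and Tgm3 runs in opposite directions.

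Control cells, which lack CreER, showed what the drug treatment alone went with, although any further difference between their cultures enters as well. All 6 measured genes were above 0, with a median of 1.17 where the median of all measured genes was -0.04. Tgm1, Cdsn, Scel and Ppl, 4 of the 6, were at least 2-fold higher, beside 1.27% of all measured genes, and none was 2-fold lower, beside 0.241%. The count was 3 with a pseudocount of 16, where Ppl, at 1.01, was 0.93, and 3 with array medians subtracted, where Ppl fell just short of 2-fold. At 1.5-fold, 6 of 6 were higher, beside 3.95% of measured genes.

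The same drug in cells with CreER was read from CKO 4OHT against CKO EtOH, the comparison in which the recombinase becomes active. Here 5 of the 6 were above 0 and the median was 0.68, beside 0.01 for all measured genes. Tgm1 alone was at least 2-fold higher, 1 of 6 beside 1.78% of measured genes, and none was 2-fold lower (1.86% of measured genes). At 1.5-fold, 4 of 6 were higher (Tgm1, Cdsn, Evpl and Scel), beside 5.67%, and Tgm3 was lower, beside 5.47%. Drug differences above 0 in both genotypes were found for 5 of the 6, beside 22.8% of measured genes.

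Under the drug, CreER cells were then compared with cells that lack it, CKO 4OHT against control 4OHT. The median of the 6 was -0.32 beside 0.01 for all measured genes, with a range from -1.01 to 0.14. None was at least 2-fold higher, beside 1.45% of measured genes. Tgm3 alone was 2-fold lower, beside 2.24%. Cdsn at -0.54, Ppl at -0.36 and Scel at -0.28 lay between it and the 2 genes above 0, Tgm1 and Evpl. This comparison shares the CKO 4OHT array with the previous one and the control 4OHT array with the drug comparison in control cells, so these values are not independent of each other.

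Without the drug the genotypes were closer. CKO EtOH was above control EtOH for 6 of the 6, by 0.06 (Evpl) to 0.36 (Scel), beside 43.7% of measured genes above 0. None was 2-fold higher or lower, where 0.0536% of measured genes were higher and 0% lower. The median was 0.18, and that of all measured genes was -0.03.

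**Figure D2:**
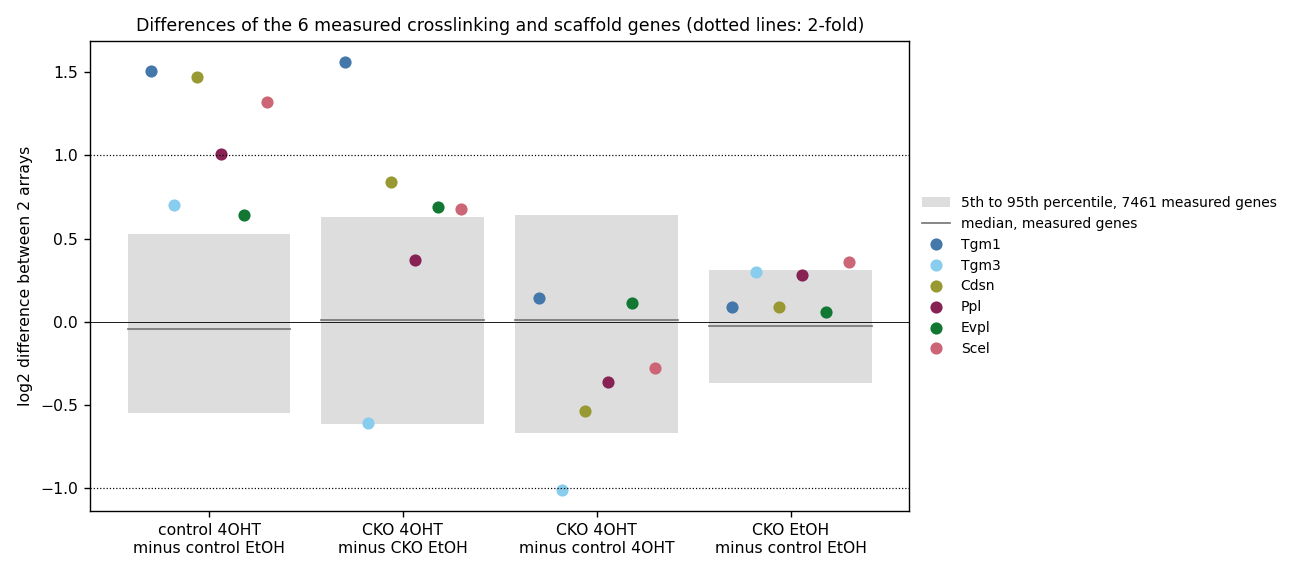
The log2 difference between arrays in each of 4 comparisons for the 6 measured genes (coloured points), with the 5th to 95th percentile (grey) and median (line) of all 7461 measured genes; dotted lines mark 2-fold. In control cells the 6 points lie between 0.64 and 1.51, and against control 4OHT they lie between -1.01 and 0.14.

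The drug differences of both genotypes were then set against each other, as the difference in CKO cells less that in control cells. It was 0.05 for Tgm1 and 0.05 for Evpl, a size within 0.1 of 0 that 20.6% of measured genes had. It was -0.63 for Cdsn, -0.64 for Ppl and -0.64 for Scel, and -1.31 for Tgm3. The same value is CKO 4OHT minus control 4OHT, less CKO EtOH minus control EtOH. These parts were -0.54 and 0.09 for Cdsn, -0.36 and 0.28 for Ppl, -0.28 and 0.36 for Scel, and -1.01 and 0.30 for Tgm3. For Scel the larger part was thus the difference between the solvent arrays. At 2-fold, 1 of 6 (Tgm3) was lower, beside 2.9% of measured genes, and none was higher, beside 2.75%. With a pseudocount of 16 Tgm3 was at -0.83 and the count was 0, as it was with the 75th percentile as level filter, which leaves Tgm3 out. At 1.5-fold, 4 of 6 were lower, beside 8.51%, and none was higher, beside 11.1%. Of those 4, Cdsn, Ppl and Scel were within 1.5-fold in CKO 4OHT against control 4OHT (1.46-fold, 1.28-fold and 1.22-fold lower). With 1 array per group these differences have no error, and none of the 6 lay at least 2-fold above or below all other arrays on CKO 4OHT, beside 0.751% and 1.09% of measured genes.

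The later envelope proteins that are laid on this scaffold gave other values on the same scale. These families were set beside the scaffold genes after their values were known. The median difference of the drug differences was -0.64 for the 6 scaffold and crosslinking genes, -1.22 for 8 measured Sprr genes and -2.68 for 9 measured Lce genes. In control cells the same 3 groups had drug medians of 1.17, 1.11 and 1.06, and in CKO cells 0.68, 0.13 and -1.30. At least 2-fold lower in CKO 4OHT than in control 4OHT were 1 of 6, 5 of 8 and 8 of 9 genes, beside 2.24% of all measured genes. Rptn and Hrnr, the measured members of the repetin, hornerin and filaggrin family, had drug differences of 1.74 and 1.51 in control cells and -3.83 and -1.43 in CKO cells. No test of the difference between these groups is possible with 1 array per group, and a probe set of an Lce or Sprr gene may also read close relatives.

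**Figure D3:**
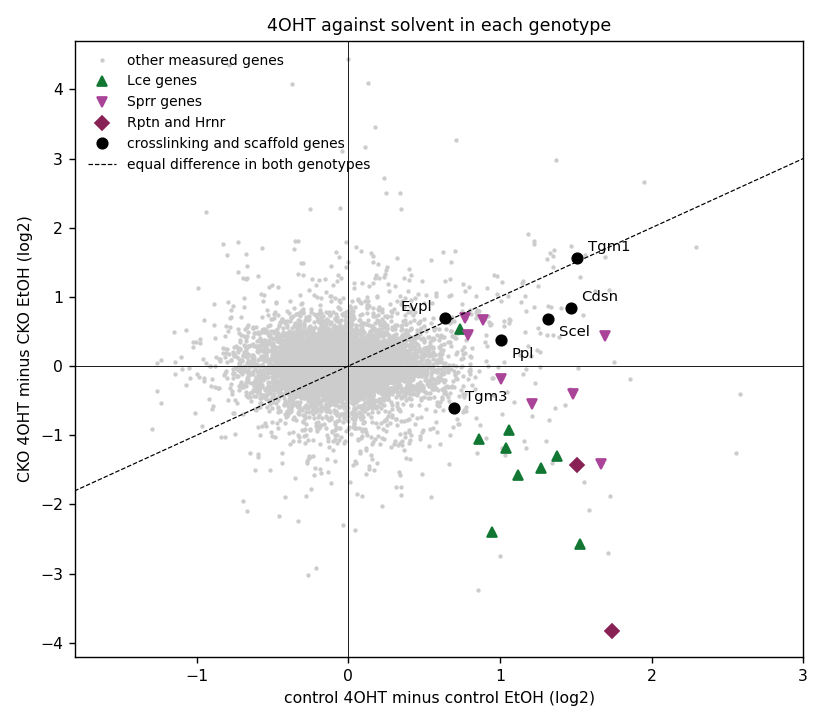
The log2 difference of 4OHT minus EtOH in control cells (horizontal) and in CKO cells (vertical) for each measured gene; black points are the crosslinking and scaffold genes, green and purple triangles the Lce and Sprr genes, diamonds Rptn and Hrnr, and the dashed line marks equal differences. Tgm1 (1.51 and 1.56) and Evpl (0.64 and 0.69) lie at the line, while most Lce genes lie under 0 on the vertical axis.

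The lists that follow were counted at 2-fold, and the shares of all measured genes belong beside their counts. With the drug in control cells 1.27% were higher and 0.241% lower, with the drug in CKO cells 1.78% and 1.86%, and in CKO 4OHT against control 4OHT 1.45% and 2.24%. Among 23 other listed envelope precursors outside those families, 13 had a probe set and 9 were measured. In CKO 4OHT against control 4OHT, 1 was at least 2-fold higher and 3 lower, with a median of -0.50. The higher one was Cst6, cystatin M/E, an inhibitor of the protease cascade that controls Tgm3 processing and itself a crosslinking substrate. Its intensity was 35.9 with EtOH and 92.8 with 4OHT in control cells, and 39.5 and 312 in CKO cells. The lower ones were Rptn (-5.54), Krt1 (-3.50), a keratin of the first suprabasal layers, and Hrnr (-3.10). Both other Rptn probe sets were not measured and differed by 0.24 or less. Lor, which encodes loricrin, was at 109.6 with EtOH and 151 with 4OHT in control cells, and 110.0 and 104 in CKO cells. Crct1, a gene of the same chromosomal cluster as Ivl, was at 642, 1593, 729.9 and 2127 in that order of arrays. Under the drug in control cells, 4 of the 9 were at least 2-fold higher (Crct1, Cst6, Hrnr and Rptn) and none lower, and in CKO cells 2 were higher (Cst6 2.98 and Crct1 1.54) and 3 lower (Rptn, Krt1 and Hrnr).

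Other plakins and desmosome proteins, to which the scaffold is anchored, had medians near that of all measured genes with the drug, 0.14 in control cells and -0.12 in CKO cells. Of 13 measured genes, Dsc1 (1.86), the cadherin desmocollin of upper desmosomes, was the 1 at least 2-fold higher with the drug in control cells. In CKO cells with the drug, Eppk1 (-1.11), which encodes the plakin epiplakin, was the 1 lower gene. Dsp, which encodes the desmosomal plakin desmoplakin, differed by 0.06 with the drug in control cells and by 0.02 in CKO cells. Plec, which encodes the plakin plectin, differed by -0.30 and 0.09. Against control 4OHT, Eppk1 (-1.48) and Dsc1 (-1.41) were lower in CKO 4OHT, and the median of the 13 was -0.32, the value that the crosslinking and scaffold genes also had.

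Genes that make, transport, handle or attach the lipids of the envelope were above 0 with the drug in both genotypes, all 12 of those measured. Among all measured genes the share was 22.8%. Some of the 12 were barely above 0, as Asah1 (0.01) in control cells and Sptlc2 (0.01) and Smpd1 (0.06) in CKO cells. Of the 12, 4 were at least 2-fold higher with the drug in control cells (Alox12b 1.33, Degs2 1.15, Ugcg 1.15 and Elovl4 1.03) and none was lower. In CKO cells 3 were higher, Alox12b (1.64), a lipoxygenase whose product is bound to envelope proteins, Degs2 (1.23), a desaturase of ceramides, and Ugcg (1.20), the glucosylceramide synthase, and none was lower. Other measured probe sets of Ugcg gave 0.27 and 0.93 in control cells, both short of 2-fold, and 0.46 and 1.07 in CKO cells. Another of Elovl4 gave 1.28 in control cells and 1.03 in CKO cells, where the counted probe set gave 0.65. Between the drug-treated genotypes none of the 12 reached 2-fold, with a median of 0.14, and the median difference of drug differences was 0.07.

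The proteases that cut corneodesmosin and related proteins, with their inhibitors, made a list of 15 measured genes that also holds Cst6. With the drug, 6 were at least 2-fold higher in control cells, among them Cst6 (1.37), Klk8 (1.22), Klk6 (1.19), all secreted by upper keratinocytes, and Asprv1 (1.17), a filaggrin-processing protease, and none was lower. In CKO cells 5 were higher (Cst6, Klk6 1.91, Klk8 1.77, Klk10 1.13 and Klk7 1.01). Ctsc, which encodes the lysosomal protease cathepsin C, was lower there (-1.43). Against control 4OHT, Cst6 (1.75) and Klk6 (1.45) were higher and Ctsc (-1.37) lower in CKO 4OHT.

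Late differentiation regulators, secreted suprabasal products with like genes, and basal genes were counted in the same way. Of 16 measured regulators, Prdm1 (1.34) was the 1 at least 2-fold higher with the drug in control cells. In CKO cells Hopx (1.15), a homeodomain protein of the upper layers, was higher, and Prdm1 (-1.40) and Gata3 (-1.07) were lower. Another measured probe set of Hopx passed 2-fold in both genotypes, at 1.03 in control cells and 1.73 in CKO cells. The list of secreted and like products, not all of them secreted, had 6 measured genes (Dmkn, Krtdap, Calml3, Calm4, Lypd3 and Ly6d). Of these, Lypd3 (1.13) and Krtdap (1.04) were at least 2-fold higher in control cells with the drug, and none was higher or lower in CKO cells. Of 10 measured basal keratinocyte genes none reached 2-fold in any of the 4 comparisons, and their medians lay between -0.12 and -0.04. In the difference of drug differences 1 of the 10 passed 2-fold, Itgb4 (1.11), which encodes an integrin of hemidesmosomes, beside 2.75% of measured genes. Medians of this difference near the -0.64 of the crosslinking and scaffold genes were also found elsewhere. They were -0.66 for the secreted and like products, -0.54 for the other precursors and -0.44 for the other plakins and desmosome proteins. The regulators had -0.39, the basal genes -0.11, the lipid genes 0.07 and the proteases with inhibitors 0.22.

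**Figure D4:**
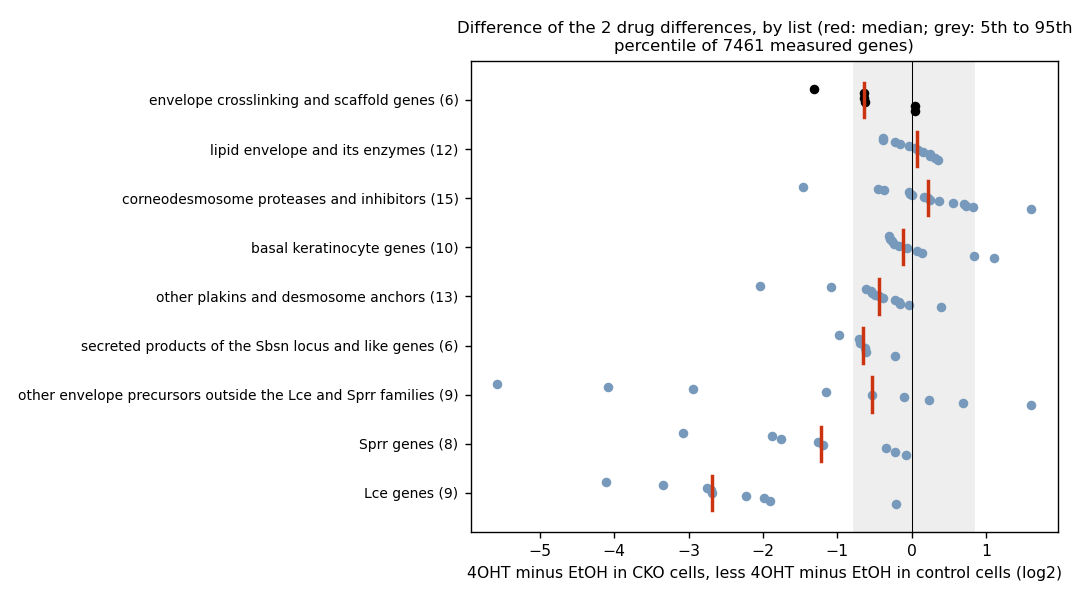
For each measured gene (points, with the number in brackets), the drug difference in CKO cells less that in control cells, in log2, by list; red lines are list medians and the grey band is the 5th to 95th percentile of all 7461 measured genes. The medians of the lists drawn run from 0.22 for corneodesmosome proteases and inhibitors to -2.68 for Lce genes; the repetin, hornerin and filaggrin family (2 measured genes, median -4.26) is not drawn as a list, and Rptn and Hrnr are points among the other precursors, with the crosslinking and scaffold genes (black) at -0.64.

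Genes outside the set whose pattern over the 4 arrays was most like a member's were listed for the 5 measured members with a range of at least 1 log2. Tgm1 was matched most closely by Clic3, a chloride channel family gene (distance 0.19, drug differences 1.35 and 1.43), and by Crct1 (0.23). For Cdsn the nearest were Gsdma (0.06), a gasdermin of the epidermis, with intensities of 41.9 and 111 (control EtOH and 4OHT) and 44.3 and 79.4 (CKO EtOH and 4OHT), and Krt80 (0.28), a keratin. For Ppl they were Ovol1 (0.10), a transcription factor of differentiating epidermis, and Plekhn1 (0.14). For Scel they were Gdpd3 (0.13) and Endou (0.15), and for Tgm3 Samhd1 (0.05) and Macrod1 (0.11). These are likenesses over 4 single arrays. The nearest were picked from all measured genes outside the set, so small distances were bound to be found. No typical distance was computed to set beside them.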

How the data were processed

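The 4 arrays (Affymetrix Mouse Expression Array 430A, 1 per group) were deposited as 1 table of 22626 probe sets. Its values are intensities on a linear scale (2.66 to 7167) that, per the submitters' processing notes, the authors made with RMA, which corrects background, normalizes between arrays and summarises probes. RMA aligns the arrays, so a shift of most transcripts would be lost, and it compresses dim differences. Its version: not given in the sources used here. Array medians were 19.95 to 20.22.

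log2 was taken from the deposited intensities, with no pseudocount, in Python 3.11.15. A gene was represented by its brightest probe set naming it alone, and was measured when 1 array reached the table's median. All 7 identifiers matched the RefSeq gene table. With 1 array per group no test was run; counts use 2-fold, beside the same share of all measured genes. Counting was tested on simulated data. The genes and lists were chosen with earlier results of these data known. From each list, genes at least 2-fold different were named, at most 4 per comparison, and Dsp, Plec, Lor, Tgm2, F13a1, F13b, Epb42, Dcn, Cd3e, Hrnr, Klk7, Klk10 and the Lce, Sprr and neighbouring genes were added after their values were seen. Alternatives were another fold, pseudocount, normalization, probe set rule and level filter.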

Additional observations from a re-analysis of the deposited data

Results flagged for a closer look

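Tgm3 was singled out because its difference between 4OHT and solvent ran in opposite directions in the genotypes, by at least 1.5-fold each. The value was 0.70 in control cells (24.3 to 39.4 intensity units) and -0.61 in CKO cells (29.8 to 19.5), a difference of -1.31. With a pseudocount of 16 the drug differences were 0.46 and -0.37, both under 1.5-fold, and differed by -0.83. This difference was not tested, since each group is 1 array. A value below the -1.31 of Tgm3 was found for 1.64% of measured genes. How many measured genes ran in opposite directions by the same rule was not counted. No group had enough arrays to look for a single array far from its group.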

How the results depend on the processing

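Of 199 recomputed counts and medians, 186 stayed near the value given above (a count within 1.5 times, a median within 1.5-fold and on its side of 2-fold), and 13 moved. Part of those that stayed could not have moved. Each gene was read by 1 probe set, so averaging probe sets changed nothing. Leaving out probe sets of the kinds shared between transcripts changed nothing either, since none of the 7 was of such a kind. Under the alternatives that keep the same 6 genes and give a median, it lay between 1.08 and 1.2 for the drug in control cells. It lay between 0.62 and 0.69 in CKO cells, and between -0.34 and -0.3 against control 4OHT. Without a level filter, which adds Ivl, the medians of these comparisons were 1.01, 0.68 and -0.28. With the 75th percentile as level filter, which drops Tgm3, they were 1.32, 0.69 and -0.28. At 1.5-fold, the genes higher in CKO 4OHT than in CKO EtOH became 4 and the lower ones 1, and 4 had a lower drug difference in CKO cells. The count of lower genes against control 4OHT stayed at 1 there. At 3-fold, the counts of higher genes in both drug comparisons, of lower genes against control 4OHT and of lower drug differences were all 0. The single lower gene against control 4OHT, Tgm3, became 0 with a pseudocount of 16, with array medians subtracted and with the 75th percentile as level filter, which leaves Tgm3 out. The single lower drug difference, also of Tgm3, became 0 with that pseudocount (-0.83) and that filter. With control 4OHT left out, 1 gene, Tgm1, was apart above on CKO 4OHT. Of 205 values of single genes, 0 shifted by more than 1.5-fold and 5 crossed the 2-fold mark, which were Tgm3 against control 4OHT (-0.64 and -0.99), its drug difference between genotypes (-0.83) and Ppl in control cells (0.93 with the pseudocount, and just short of 2-fold with medians subtracted). Part of the 205 could not move, since the probe set rules and the level filters leave each of these genes' differences unchanged. A change of sign was seen for 2, the near-zero differences of drug differences of Tgm1 and Evpl (-0.02 and -0.04 at the lowest). No replicate could be left out. No paired analysis was possible because each group has 1 array. The table carries no detection calls, so values near the level filter, as for Tgm3 and Ivl, are the least certain.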

Other observations

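The genes that lie next to the set on the chromosomes, by the order of protein-coding genes in the RefSeq gene table, were looked up after the values were known. Psors1c2, beside Cdsn on chromosome 17, was 1.21 higher in drug-treated than in solvent-treated control cells and differed by -0.49 in CKO cells and by -1.60 between CKO 4OHT and control 4OHT, where Cdsn differed by 1.47, 0.84 and -0.54. The measured neighbours of Tgm1 on chromosome 14, Tinf2 and Rabggta, had drug differences of -0.26 and 0.28 in control cells, against 1.51 for Tgm1. In CKO cells Rabggta differed by 0.80. Mycbp2 beside Scel, Ubn1 beside Ppl, and Ten1 and Srp68 beside Evpl had drug differences between -0.06 and 0.09 in control cells. In CKO cells those of the same genes lay between -0.38 (Ubn1) and -0.17 (Mycbp2).

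Sbsn and Cnfn had no listed probe set, but measured neighbours did. Dmkn, which encodes the suprabasal protein dermokine and follows Sbsn on chromosome 7, was at 1655 with EtOH and 2332 with 4OHT in control cells, and 2046 and 1885 in CKO cells. Gapdhs, on the other side of Sbsn, was 1.32 higher in CKO 4OHT than in CKO EtOH and 1.23 higher than in control 4OHT. Lipe, which encodes hormone-sensitive lipase and lies beside Cnfn, had drug differences of 0.63 in control cells and 0.70 in CKO cells.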
